A study of Mus musculus with 50 samples.

Results

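The genes examined were 49 members of the insulin, AMPK and glycogen pathways, listed by name. Earlier results of these data were known when the list was made. A CpG counted as a member CpG when the deposited table assigned it to the promoter or the gene body of a member, by Ensembl identifier. Of the 49 genes, 45 held at least 1 measured CpG, and together they held 588 of 205304 CpGs, which fell in 120 of 51038 clusters, a cluster being a run of neighbouring CpGs as the authors defined it. Prkaa1, Prkag3, Ppp1r3a and Eno3 had no measured CpG. The members were read in 6 roles, namely the insulin receptor with PI3K and Akt, glucose transport, AMPK, glycogen metabolism, glycolysis, and mTOR with FOXO.

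Reduced representation bisulfite sequencing (RRBS), which reads methylation in CpG-rich fragments of the genome, was run on soleus, a slow oxidative calf muscle, from 12-week-old male and female C57BL/6 mice. WT and mD3AKO mice both carried Dnmt3a alleles with loxP sites around exon 19, and the mD3AKO mice also carried the mCK-Cre transgene, in which the muscle creatine kinase promoter drives Cre recombinase. Mice ran on a treadmill for 30 min and were killed 10, 30 or 60 min later, and the rest groups spent the same time in a sham treadmill. The 44 samples with counts were 21 WT muscles (5 at rest and 5, 5 and 6 at the successive times) and 23 mD3AKO muscles (5, 5, 7 and 6 in the same order), with both sexes in each group. The muscle creatine kinase promoter is active late in muscle differentiation, so satellite cells and non-muscle cells of the whole soleus would be likely to keep Dnmt3a, which was not tested, and a lower level in every nucleus cannot be told apart from a different share of cell types.

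Insulin acts through its receptor and the IRS adaptors on PI3-kinase, whose lipid product brings Akt to the membrane through PDK1. Akt moves the transporter GLUT4 to the surface, releases glycogen synthase from GSK3, activates mTORC1 by way of TSC2 and keeps FOXO factors out of the nucleus. AMPK, a sensor of the energy charge switched on by LKB1 and CaMKK2, is the main contraction-linked counterpart, and glycogen is the fuel store on which both arms act. Dnmt3a places new methyl groups on cytosines, mostly in the CpG context, and CpG-rich gene starts are usually free of them whereas CpG-poor gene bodies are usually methylated.

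The 44 libraries held 12819404 to 41285655 calls each in the table, and no CpG had fewer than 8 calls in a sample. Of the 588 member CpGs, 286 had at least 20 calls in each sample. Same-group libraries differed by more than counting noise, with a chi-square of 5.97 to 13.9 per CpG over 101 pairs, so no library was taken for a copy of another. The 21 CpGs of Dnmt3a were covered 0.897 to 1.24 times as deeply in mD3AKO as in WT. Where these CpGs lie relative to exon 19 is not given here, so their depth cannot show whether the exon was deleted. Genotypes rest on the labels here. The paper reported less Dnmt3a mRNA in soleus and less DNMT3A protein in skeletal muscle of mD3AKO mice. Promoters of 6 of 14 genes that mark myofibres had CpGs, with a level averaged over the promoters of 0.162% to 7.63% in WT and 0.314% to 15.4% in mD3AKO samples, and those of 3 of 12 genes that mark other cells of muscle had 0% to 4.72% and 0.05% to 8.98%. Their part in the results was not tested. Samples numbered 1 to 25 were the rest and 60 min muscles and those numbered 26 to 50 the 10 and 30 min muscles, so time but not genotype is shared with the numbering.

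The following sequences are measured stretches of the 3 called clusters, of the Slc2a1 and Akt2 clusters that hold CpGs called singly, and of the glycolysis cluster with the lowest p. The Foxo3 stretch shows 6 of the 25 CpGs of its cluster. The Slc2a1 stretch shows 4 of the 13 CpGs of its cluster and leaves out 1 of the CpGs called singly there. They are from GRCm38 on the strand of the gene, 5′ to 3′, with each measured CpG in capitals. The Camkk2 stretch (chr5:122773839-122773939, minus strand, intron) holds 5 CG dinucleotides, of which 1 was measured. The Pik3r1 stretch (chr13:101758151-101758280, minus strand, intron) holds 4 with 3 measured, and the Foxo3 stretch (chr10:42275330-42275403, minus strand, coding exon) holds 6, all measured. The Slc2a1 stretch (chr4:119110010-119110062, plus strand, intron), the Akt2 stretch (chr7:27602926-27603006, plus strand, intron) and the Hk1 stretch (chr10:62327864-62327975, minus strand, intron) had 4, 2 and 6 CG dinucleotides, all measured.
Camkk2: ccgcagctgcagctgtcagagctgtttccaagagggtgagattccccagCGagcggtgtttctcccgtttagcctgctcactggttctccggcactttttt
Pik3r1: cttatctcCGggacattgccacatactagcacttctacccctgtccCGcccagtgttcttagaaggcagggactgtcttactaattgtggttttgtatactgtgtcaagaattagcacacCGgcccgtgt
Foxo3: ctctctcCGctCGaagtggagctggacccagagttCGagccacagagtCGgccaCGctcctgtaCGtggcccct
Slc2a1: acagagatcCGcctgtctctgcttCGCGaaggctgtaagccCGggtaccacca
Akt2: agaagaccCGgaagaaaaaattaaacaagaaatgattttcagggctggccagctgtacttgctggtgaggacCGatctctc
Hk1: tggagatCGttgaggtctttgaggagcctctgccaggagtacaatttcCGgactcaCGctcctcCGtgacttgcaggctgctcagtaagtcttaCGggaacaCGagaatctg

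The levels of the 120 member clusters, taken as methylated calls over all calls and averaged over the 44 samples, followed CpG density. The 37 clusters in CpG-dense windows (500 bp with at least 50% GC and at least 0.6 of the CpGs predicted from base composition) lay between 0.154% and 5.40%, with a median of 0.719%. The 83 CpG-poor clusters spanned 0.0302% to 95.4%, with a median of 55.6%. By level, 55 clusters were under 20%, 44 were between 20% and 80%, and 21 were over 80%. The 44 clusters of intermediate level were all CpG-poor.

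**Figure D1:**
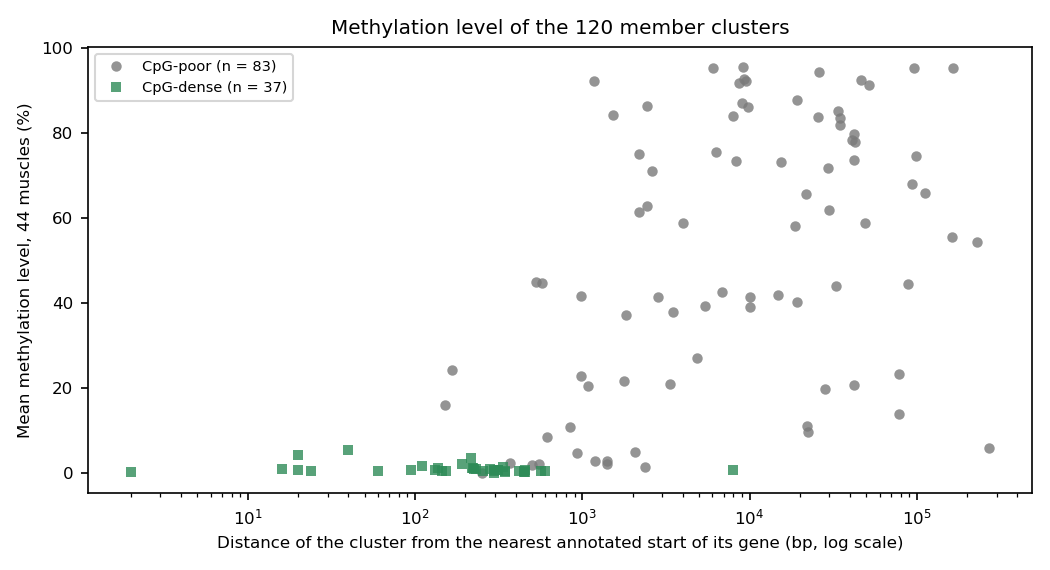
Mean methylation level over 44 samples (y axis, percent) of each of the 120 member clusters against its distance from the nearest annotated start of its gene (x axis, bp, log scale), with 37 CpG-dense and 83 CpG-poor clusters in different colours. The CpG-dense clusters lie at 5.40% or lower and the CpG-poor ones spread from 0.0302% to 95.4%.

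The first question was whether the loss of Dnmt3a changed methylation at these genes, with the genotypes compared over all 4 stages. Methylation of 3 of the 120 member clusters was lower in mD3AKO muscle at an adjusted p under 0.05 (edgeR quasi-likelihood test, Benjamini-Hochberg over all clusters), against 1.09% of all clusters. They lay in Camkk2, an upstream kinase of AMPK, in Pik3r1, the p85 regulatory subunit of PI3-kinase, and in Foxo3, a FOXO transcription factor. At an unadjusted p under 0.05 there were 14 member clusters (11.7%), 13 of them lower, against 9.56% of all clusters, where 4240 of 4881 were lower. The log2 odds ratio is the log2 of the odds of methylation in mD3AKO over those in WT muscle, as fitted, and a cluster is counted as lower where it was negative. As many as 75 of 120 (62.5%) were lower, against 62.3% of all clusters. The median log2 odds ratio was -0.26 in the members and -0.15 over all clusters, and the median differences in level were -0.383 and -0.455 percentage points. The calls came from 3 genes, and for the remaining clusters the shares lay near those of the whole table. Under other tests the members called were 7 clusters by the likelihood ratio test (background 2.77%), 7 by a quasi-binomial model (2.54%), 4 by limma (1.75%), and 3 of 68 clusters when only CpGs with at least 20 calls in every sample were kept (1.53%). The last 3 included the Camkk2 cluster again. In place of Foxo3 and the Pik3r1 intron there were a start inside Pik3r1 and the cluster reaching from the start of Slc2a1 into an intron.

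**Figure D2:**
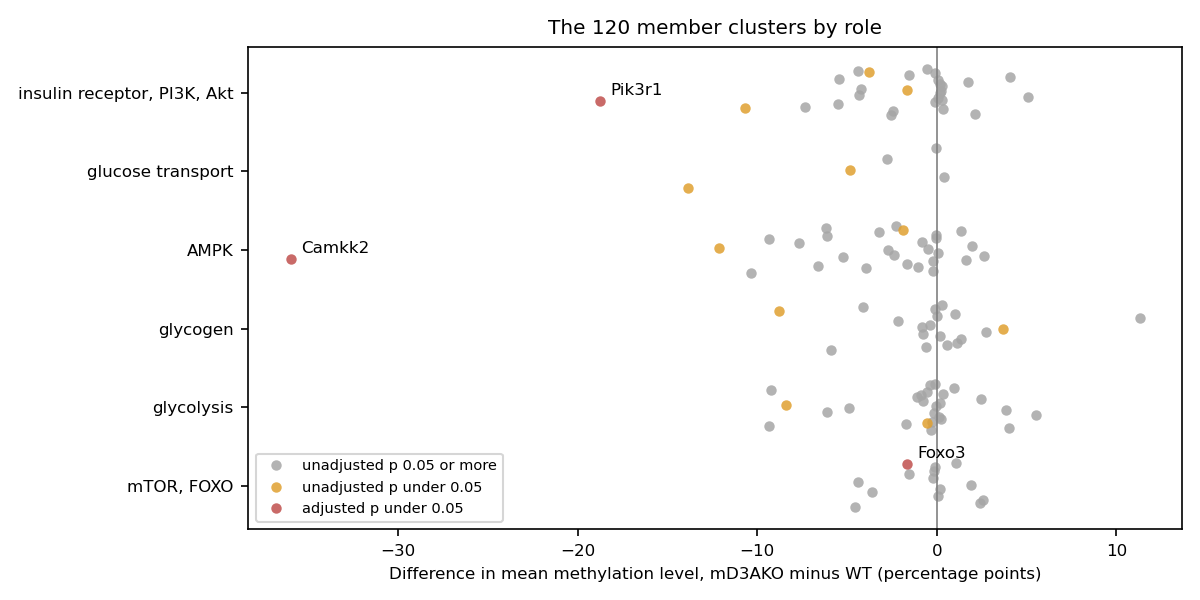
Difference in mean methylation level, mD3AKO minus WT (x axis, percentage points), of the 120 member clusters by role (y axis), one point per cluster, coloured by whether the genotype p was 0.05 or more, under 0.05 unadjusted or under 0.05 adjusted. The 3 called points lie at -36.0 for Camkk2, -18.8 for Pik3r1 and -1.65 for Foxo3, and 96 of 120 clusters lie within 5 points of 0.

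By level class, 1 of 55 member clusters under 20% was called (1.82%, against 1.74% of the 17013 such clusters in the table), 2 of 44 between 20% and 80% (4.55%, against 1.15% of 20413), and 0 of 21 over 80% (against 0.191% of 13612, with 2 of the 21 at an unadjusted p under 0.05). In the middle class 32 of 44 (72.7%) were lower, against 65.2% of all such clusters.

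The insulin receptor, PI3K and Akt genes, 11 in number, held 152 CpGs in 28 clusters. Of these, 16 were lower in mD3AKO muscle, 4 had an unadjusted p under 0.05 and 1 was called. The shares of all clusters, to be set beside the counts of each role, were 62.3%, 9.56% and 1.09% in that order. The called cluster lies in an intron of Pik3r1 (chr13:101758159-101758272, 3 CpGs, 54 to 354 calls per sample), the gene of the adaptor that ties the PI3-kinase catalytic subunit to phosphorylated IRS proteins. WT levels ran from 21.8% over a median of 51.0% to 76.9%, and mD3AKO levels from 6.02% over 36.1% to 53.4%. The ranges overlapped, with 7 of 23 mD3AKO muscles below the lowest WT muscle, 9 of 21 WT muscles above the highest mD3AKO muscle, and 22 of 23 mD3AKO muscles below the WT mean. The means were 51.1% ± 13.9 (SD, n = 21) and 32.4% ± 14.4 (SD, n = 23), a difference of -18.8 percentage points and a log2 odds ratio of -1.27 (SE 0.32, adjusted p = 0.031). Most of it came from the CpGs at 101758233 and 101758272, which went from 68.3% to 47.1% and from 53.4% to 31.7%, while the other stood at 4.73% and 3.03%.

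The size of the Pik3r1 difference varied between stages. In the rest groups WT muscle had 48.2% ± 17.7 (SD, n = 5) and mD3AKO muscle 43.2% ± 5.74 (SD, n = 5), and at 10 min 60.5% ± 12.6 (SD, n = 5) and 23.6% ± 16.8 (SD, n = 5). The log2 odds ratio was -0.29 in the rest groups (unadjusted p = 0.664), -2.62 at 10 min (0.000426), -0.88 at 30 min (0.147) and -1.30 at 60 min (0.0401). The interaction test of edgeR gave an unadjusted p of 0.102 for this cluster. The difference was -12.7 points in samples numbered 1 to 25 and -24.5 points in samples numbered 26 to 50. The call was close to its threshold: it was lost with CpGs of at least 20 calls (adjusted p = 0.0542) and when any 1 of 7 samples was left out, namely WT samples 1, 13, 30 and 44 and mD3AKO samples 6, 28 and 34.

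At a start inside Pik3r1, where shorter transcripts begin (chr13:101694330-101694950), WT muscle had 7.37% ± 3.52 (SD, n = 21) and mD3AKO muscle 3.59% ± 2.66 (SD, n = 23), with a log2 odds ratio of -1.28 (adjusted p = 0.0789, not called). It was called by the likelihood ratio test (adjusted p = 0.00761), the quasi-binomial model (0.0151), limma (0.0352) and with CpGs of at least 20 calls (0.0425), so its call depended on the test. At 10 min the WT muscles lay between 8.74% and 16.7% and the mD3AKO muscles between 0.832% and 4.50%. At the other stages the groups overlapped, at 0.635% to 5.77% and 0.598% to 6.88% at rest. The ranges were 3.44% to 9.89% and 0% to 10.4% at 30 min, and 4.46% to 9.19% and 1.32% to 7.25% at 60 min. The upstream start of Pik3r1, with 25 CpGs, stood at 0.559% and 0.772%. Of the Akt genes, Akt1 had 2 CpGs in an intron near its start (chr12:112674468-112674528) at 2.01% ± 2.39 (SD, n = 21) and 0.350% ± 1.07 (SD, n = 23). As many as 20 of 23 mD3AKO muscles and 9 of 21 WT muscles were at 0% (adjusted p = 0.136, and 0.0467 in the likelihood ratio test). Akt2, the isoform most tied to insulin-stimulated glucose uptake, had 2 intronic CpGs (chr7:27602934-27602998) at 47.0% ± 12.7 (SD, n = 21) and 36.3% ± 8.28 (SD, n = 23), with an adjusted p of 0.351, and 0.0108 in the quasi-binomial model. These clusters were singled out after their values were seen, since they are the others of this role under an unadjusted p of 0.05.

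The receptors and adaptors upstream of PI3-kinase held no call. The insulin receptor gene Insr had 3 clusters, of which the CpG-dense start stood at 0.177% in WT and 0.476% in mD3AKO muscle and an intronic pair of CpGs at 46.1% and 41.9%. Igf1r, the related receptor for IGF-1, had 8 clusters with differences between -7.33 and 2.12 points and a lowest unadjusted p of 0.283. The adaptor genes had start clusters of 12 CpGs in Irs1, at 1.11% and 1.39%, and of 23 CpGs in Irs2, at 0.824% in WT and 0.184 points higher in mD3AKO muscle. Further down, Pik3ca, the catalytic subunit, Pdpk1, the kinase PDK1, and Gsk3a and Gsk3b, the glycogen synthase kinases, had 6 clusters, and none had an unadjusted p under 0.05.

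The 3 glucose transport genes held 27 CpGs in 5 clusters, of which 4 were lower, 2 had an unadjusted p under 0.05 and none was called. The lowest p was in a CpG-poor cluster that begins at the start of Slc2a1, the gene of the basal transporter GLUT1 (chr4:119108922-119110052, 13 CpGs from the 5′ untranslated region into an intron). WT levels ran from 3.29% over a median of 11.6% to 17.9%, and mD3AKO levels from 0.612% over 5.55% to 16.2%. The ranges overlapped over most of their length. The means were 11.1% ± 4.54 (SD, n = 21) and 6.24% ± 3.76 (SD, n = 23), with a log2 odds ratio of -1.02 (SE 0.33) and an adjusted p of 0.156. The adjusted p was 0.0467 in the likelihood ratio test, 0.0205 in the quasi-binomial model and 0.0307 with CpGs of at least 20 calls, so the call at this start depended on the test. The other Slc2a1 cluster, a single CpG at chr4:119115137, stood at 82.8% ± 17.8 (SD, n = 21) and 68.9% ± 16.6 (SD, n = 23), with an adjusted p of 0.225, and 0.0494 in the likelihood ratio test. Slc2a4, the gene of the insulin-responsive transporter GLUT4, had a CpG-dense cluster at its start at 2.10% and 2.05% and a cluster further in at 72.4% and 69.6%. Rac1, a small GTPase that takes part in GLUT4 translocation, had 6 CpGs at its start at 0.606% and 1.00%, and is taken up with the time course.

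The AMPK genes were 9, of which 7 held 127 CpGs in 28 clusters, 20 of them lower, with 3 at an unadjusted p under 0.05 and 1 called. The called cluster is a single CpG in an intron of Camkk2 (chr5:122773889), 5392 bp from the nearest annotated start and read by 41 to 251 calls per sample. WT levels ran from 16.4% over a median of 63.3% to 97.9%, and mD3AKO levels from 1.22% over 20.0% to 58.8%. Of 23 mD3AKO muscles, 22 lay below the WT mean and 9 below the lowest WT muscle, and 12 of 21 WT muscles lay above the highest mD3AKO muscle. The means were 58.0% ± 19.7 (SD, n = 21) and 22.0% ± 15.1 (SD, n = 23), a difference of -36.0 points and a log2 odds ratio of -2.63 (SE 0.48, adjusted p = 0.00118). Over the whole table, 3 clusters had a larger drop in mean level.

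The Camkk2 difference was present at each stage. The means were 62.4% and 25.8% at rest, 67.8% and 20.8% at 10 min, 43.5% and 16.1% at 30 min, and 58.3% and 26.9% at 60 min. The log2 odds ratios were -2.38, -3.29, -2.16 and -2.69 in that order, with unadjusted p-values of 0.0157, 0.00175, 0.0224 and 0.00816. Samples numbered 1 to 25 gave -33.8 points and samples numbered 26 to 50 gave -37.6 points, and the CpG stayed under the calling threshold with each of the 44 samples left out in turn. The 6 other Camkk2 clusters differed by -10.4 to 2.61 points with a lowest unadjusted p of 0.142, among them 1 intronic CpG nearer to the start at 19.5% and 22.1%, so the called difference was at 1 CpG of the 17 measured in the gene.

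Among the AMPK subunits, the gamma subunit gene Prkag2 had the most clusters, 12, of which 9 were lower and 2 had an unadjusted p under 0.05: a coding and intronic cluster at chr5:25021611-25021899 (95.2% and 93.4%) and a single CpG at chr5:25057823 (84.2% and 72.1%). The beta subunit gene Prkab1 held the member cluster with the most CpGs, 29 at its start (chr5:116023599-116024894). Its levels were 3.46% ± 1.64 (SD, n = 21) and 3.54% ± 1.52 (SD, n = 23), with a log2 odds ratio of 0.14 and an adjusted p of 0.959. The start clusters of Prkab2, Prkag1 and Stk11, the gene of LKB1, stood between 0.432% and 0.880% in both genotypes. Prkaa2, the catalytic alpha subunit most abundant in muscle, had 1 intronic cluster at 43.1% ± 18.1 (SD, n = 21) and 37.8% ± 12.2 (SD, n = 23).

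The 8 glycogen genes, 7 of them covered, held 60 CpGs in 19 clusters, of which 10 were lower, 2 had an unadjusted p under 0.05 and none was called. The lowest p was in an intron of Phkb, a regulatory subunit of phosphorylase kinase (chr8:85872176-85872246, 2 CpGs). Its levels were 76.4% ± 13.5 (SD, n = 21) and 67.6% ± 14.1 (SD, n = 23), with a log2 odds ratio of -0.79 (SE 0.36, adjusted p = 0.447). The groups overlapped, and the means of the genotypes were 72.2% and 74.6% at 30 min and 76.7% and 57.8% at rest. Another Phkb intron (chr8:85971177-85971223) was the only member cluster with a higher level in mD3AKO muscle at an unadjusted p under 0.05, with 90.5% and 94.2% and a log2 odds ratio of 1.55 (unadjusted p = 0.0488). Gys1, the muscle glycogen synthase, had an upstream cluster at 1.04% and 0.424% and an intronic pair of CpGs at 52.9% ± 26.2 (SD, n = 21) and 64.2% ± 19.5 (SD, n = 23), both above an unadjusted p of 0.05. Pygm, the muscle glycogen phosphorylase, stood at 22.8% and 25.5% in a coding exon near its start. The remaining genes, Gyg, the primer of glycogen synthesis, Gbe1, the branching enzyme, Phkg1, the catalytic subunit of phosphorylase kinase, and Ppp1r3c, a glycogen-targeting subunit of protein phosphatase 1, held 10 clusters with genotype p-values of 0.271 or more.

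The 11 glycolysis genes, 10 of them covered, held 136 CpGs in 26 clusters, of which 17 were lower, 2 had an unadjusted p under 0.05 and none was called. Both of the lowest p-values were in Hk1, a hexokinase. An intronic cluster of 6 CpGs (chr10:62327872-62327967) was centred -152 bp from the nearest annotated start, that is just upstream of an internal start. Its levels were 20.6% ± 10.1 (SD, n = 21) and 12.1% ± 7.57 (SD, n = 23). The log2 odds ratio was -0.91 (SE 0.33, adjusted p = 0.257), with an adjusted p of 0.0209 in the quasi-binomial model. At another internal start of Hk1 the levels were 0.726% and 0.191%. Hk2, the insulin- and exercise-responsive hexokinase, had 2 start clusters at or under 1.12% and an intronic CpG at 35.2% and 39.2%. The start clusters of Pfkm, Pfkfb3, Gapdh, Pkm and Ldhb, the genes of phosphofructokinase, the enzyme that makes its activator, glyceraldehyde-3-phosphate dehydrogenase, pyruvate kinase and a lactate dehydrogenase subunit, were between 0.214% and 2.77% in both genotypes.

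The 7 mTOR and FOXO genes held 86 CpGs in 14 clusters, of which 8 were lower and 1, in Foxo3, was called; it was also the only one at an unadjusted p under 0.05. Foxo3 encodes a transcription factor that turns on atrophy and autophagy genes when Akt is inactive. Its 25 CpGs form 1 cluster over the gene start (chr10:42275338-42278609, 799 to 4049 calls per sample). WT levels ran from 0.0978% over a median of 1.58% to 9.36%, and mD3AKO levels from 0% over 0.186% to 1.14%. Each of the 23 mD3AKO muscles lay below the WT mean, 8 lay below the lowest WT muscle, and 12 of 21 WT muscles lay above the highest mD3AKO muscle. The means were 2.00% ± 2.03 (SD, n = 21) and 0.348% ± 0.356 (SD, n = 23), with a difference of -1.65 points and a log2 odds ratio of -2.46 (SE 0.50, adjusted p = 0.00417).

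The log2 odds ratio at Foxo3 was -2.01 in the rest groups, -2.0 after 10 min, -3.54 after 30 min and -2.29 after 60 min. Of the 25 CpGs, 20 had a lower mean in mD3AKO muscle. The 3 highest WT means were at CpGs of the coding exon whose sequence is given above: the CpG at 42275395 went from 9.87% to 1.00%, that at 42275348 from 6.52% to 0.637%, and that at 42275338 from 5.18% to 0.0186%. These 3 CpGs had medians of 1.14% to 4.23% in WT and 0% in mD3AKO muscle. The next highest WT mean, 4.84% at an intronic CpG, held 1 muscle at 88.9% and a median of 0%. WT samples 42 (10 min, 5.02%) and 38 (30 min, 9.36%) stood far above the others. Without both, the WT mean was 1.45% ± 0.875 (SD, n = 19), and without either the log2 odds ratio was -2.28 or -2.34, under the calling threshold. The CpGs of the coding exon had as few as 14 calls in a sample. With CpGs of at least 20 calls, 4 intronic CpGs remained, and the log2 odds ratio was -1.32 with an adjusted p of 1.

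**Figure D3:**
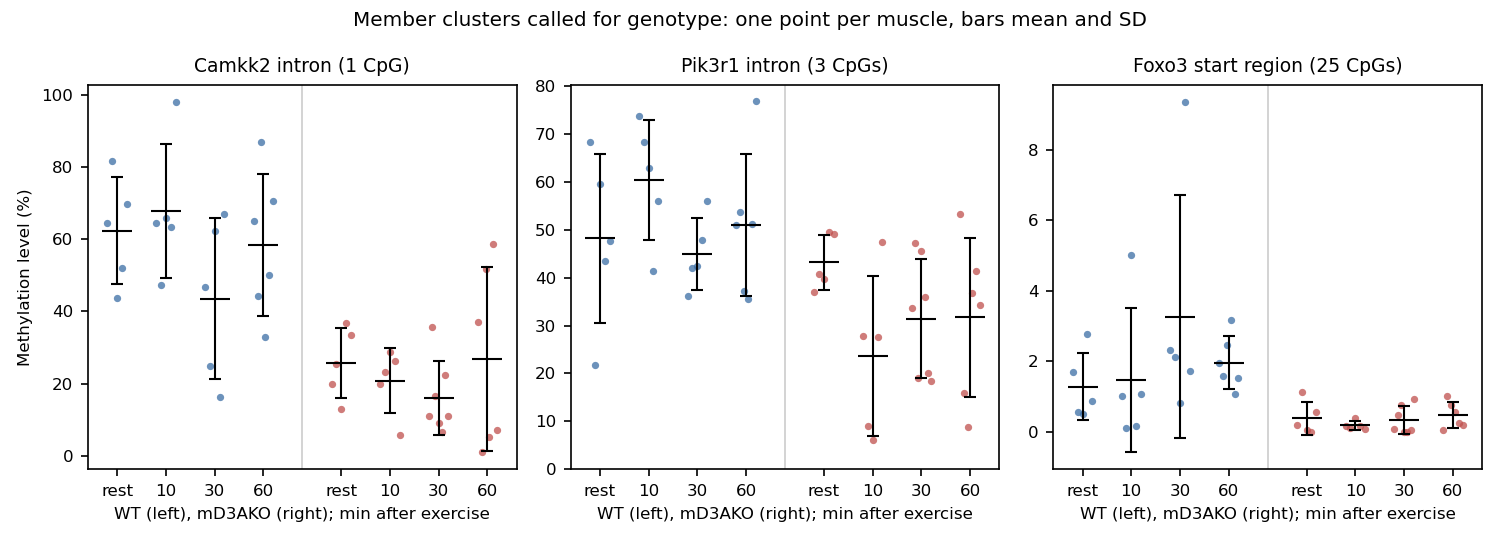
Methylation level (y axis, percent) of the 3 called member clusters in each of the 8 groups (x axis), one point per muscle (n = 5 to 7 per group), with bars for the mean and SD. At Camkk2 the WT group means are 43.5% to 67.8% and the mD3AKO means 16.1% to 26.9%, at Pik3r1 the rest groups lie together at 48.2% and 43.2%, and at Foxo3 the mD3AKO means are 0.188% to 0.472%.

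The other FOXO gene, Foxo1, had a CpG-dense start cluster of 18 CpGs at 0.444% and 0.354%. Mtor, the kinase of mTORC1, had a start cluster at 0.368% and 0.452% and a coding cluster at 93.9% and 96.5%, and Rptor, its raptor partner, had 4 clusters that differed by -3.58 to 2.41 points. Rps6kb1, the S6 kinase, and Tsc1 and Tsc2, the brake on mTORC1, had 5 clusters with differences between -4.54 and 1.9 points, none with an unadjusted p under 0.05. Foxo3 was thus the only gene of this role with a genotype difference past a threshold.

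Clusters add up CpGs that may differ, so the 588 member CpGs were also read singly, in the quasi-binomial model. Of these, 5 were called at an adjusted p under 0.05, against 0.409% of all CpGs. One was the Camkk2 CpG above (adjusted p = 0.00022). The second of the Akt2 CpGs (27602998) went from 44.6% ± 12.9 (SD, n = 21) to 29.8% ± 7.83 (SD, n = 23), with each of 23 mD3AKO muscles below the WT mean and an adjusted p of 0.00173. At Slc2a1, the CpG at 119109732 went from 11.1% ± 6.90 (SD, n = 21) to 2.08% ± 2.03 (SD, n = 23), with an adjusted p of 0.00109, and 16 of 21 WT muscles lay above the highest mD3AKO muscle. The first CpG of the printed Slc2a1 stretch (119110020) went from 51.1% to 29.7% (adjusted p = 0.0288), whereas its neighbours at 119110035 and 119110037 stood at 25.4% and 25.5%, and at 39.6% and 32.2%. The last was at the internal start of Pik3r1 (101694948), from 17.5% to 4.6% (adjusted p = 0.0367). In the same model the Akt2 cluster and the start clusters of Slc2a1 and Pik3r1 that hold these CpGs were called as a whole too, with adjusted p-values of 0.0108, 0.0205 and 0.0151.

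**Figure D4:**
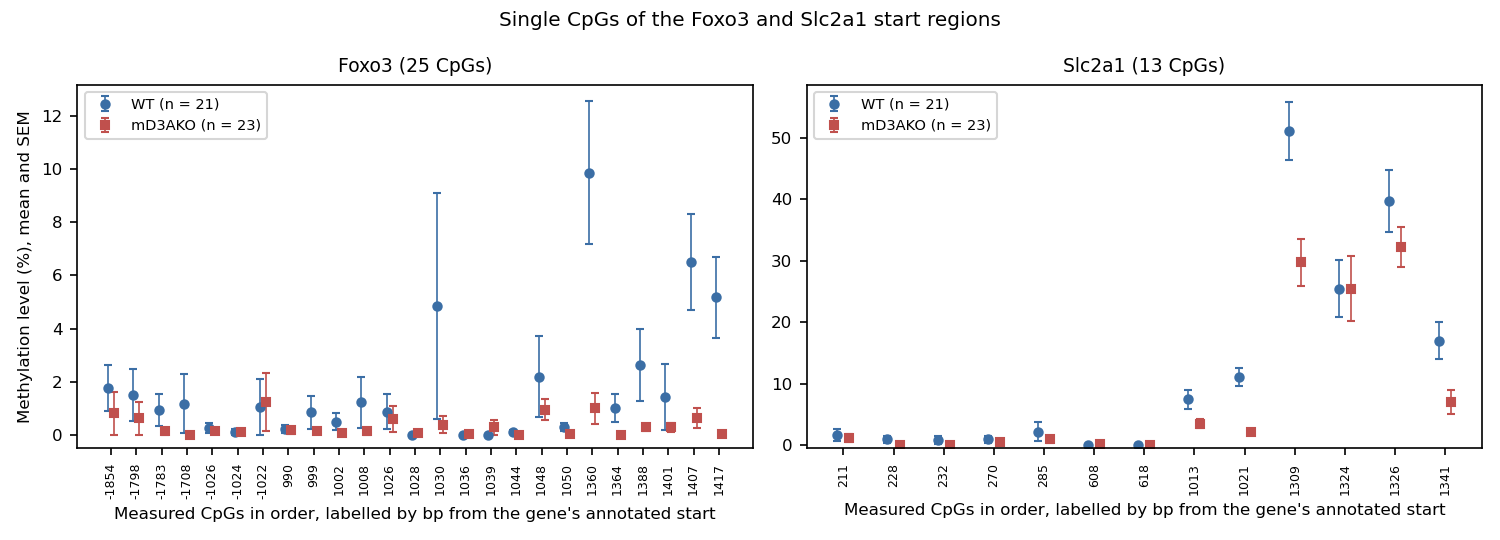
Methylation level (y axis, percent, mean and SEM) of each measured CpG in the Foxo3 and Slc2a1 start clusters, ordered along the gene and labelled by bp from its annotated start (x axis), in WT (n = 21) and mD3AKO (n = 23) muscle. At Slc2a1 the CpGs 1021 bp and 1309 bp from the start show 11.1% against 2.08% and 51.1% against 29.7%, and at Foxo3 the WT excess is at the coding-exon CpGs 1360 to 1417 bp from the start.

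Promoters, as the authors assigned them from 3000 bp upstream to 1000 bp downstream of a start, could be tested in 38 members. None was called for genotype by edgeR (0, against 0.789% of all promoters), by the quasi-binomial model (0) or by limma (0). At an unadjusted p under 0.05 there was 1, that of Akt1 (adjusted p = 0.176), against 8.13% of all promoters. Of the 38 promoters, 33 had a level under 5%. The 3 over 20% were those of Aldoa, a glycolytic aldolase (3 CpGs, 86.3% ± 10.3 (SD, n = 21) and 86.1% ± 8.91 (SD, n = 23)), of Pgam2, the muscle phosphoglycerate mutase (2 CpGs, 68.8% ± 18.2 and 69.6% ± 13.3), and of Ldha, the muscle lactate dehydrogenase (1 CpG with 11 to 177 calls, 49.5% ± 24.4 and 40.3% ± 25.8). The CpGs behind the Aldoa value were centred -9846 bp from the nearest protein-coding start of Aldoa in the annotation used here. Their cluster was also assigned to Fam57b. The start cluster of 17 CpGs in Aldoa stood at 0.747% and 0.929%.

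Gene bodies could be tested in 43 members, and 2 were called, against 1.42% of all gene bodies. They were Foxo3 (18 CpGs, 2.33% and 0.311%, log2 odds ratio -2.52, SE 0.53, adjusted p = 0.00424) and Pik3r1 (31 CpGs, 6.47% and 4.36%, log2 odds ratio -0.64, SE 0.17, adjusted p = 0.049). The Pik3r1 gene body did not pass in limma (adjusted p = 0.0519). The quasi-binomial model called 4 member gene bodies (background 2.32%) and limma 1 (background 1.72%). The Camkk2 gene body, which sums 15 CpGs, was not called (adjusted p = 0.41), and these 2 gene bodies share their CpGs with the clusters above.

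The second question was whether methylation at the members moved after exercise. No member cluster was called for time by edgeR (0 of 120, with 0% of all clusters called), and 7 had an unadjusted p under 0.05, against 2.86% of all clusters. The likelihood ratio test, the quasi-binomial model, limma and the 20-call minimum also called 0 member clusters. The lowest p was at the start of Rac1 (chr5:143527930-143528015, unadjusted p = 0.00548, adjusted p = 1). At 10 min WT muscle had 1.96% ± 1.75 (SD, n = 5) and mD3AKO muscle 3.19% ± 5.64 (SD, n = 5), against group means of 0.0833% to 0.993% at the other stages, and the mD3AKO mean at 10 min held 1 muscle at 13.2% and a median of 0.566%.

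An intronic CpG of Phkg1 (chr5:129876296, unadjusted p = 0.0102, adjusted p = 1) had 46.7% ± 15.8 (SD, n = 5) at rest in WT and 38.7% ± 20.8 (SD, n = 5) at rest in mD3AKO muscle, and 77.8% ± 17.0 and 69.2% ± 14.0 at 10 min. The later means were 61.6% and 61.5% at 30 min, and 63.5% and 69.4% at 60 min. The rest groups, at 18.8% to 56.1% in WT and 2.22% to 51.6% in mD3AKO muscle, each held a single low muscle. An intronic CpG of Pik3r1 (chr13:101691588, unadjusted p = 0.0185, adjusted p = 1) had WT means of 43.7%, 19.2%, 33.0% and 56.4% at rest, 10, 30 and 60 min, and mD3AKO means of 53.4%, 42.3%, 35.5% and 47.5%.

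**Figure D5:**
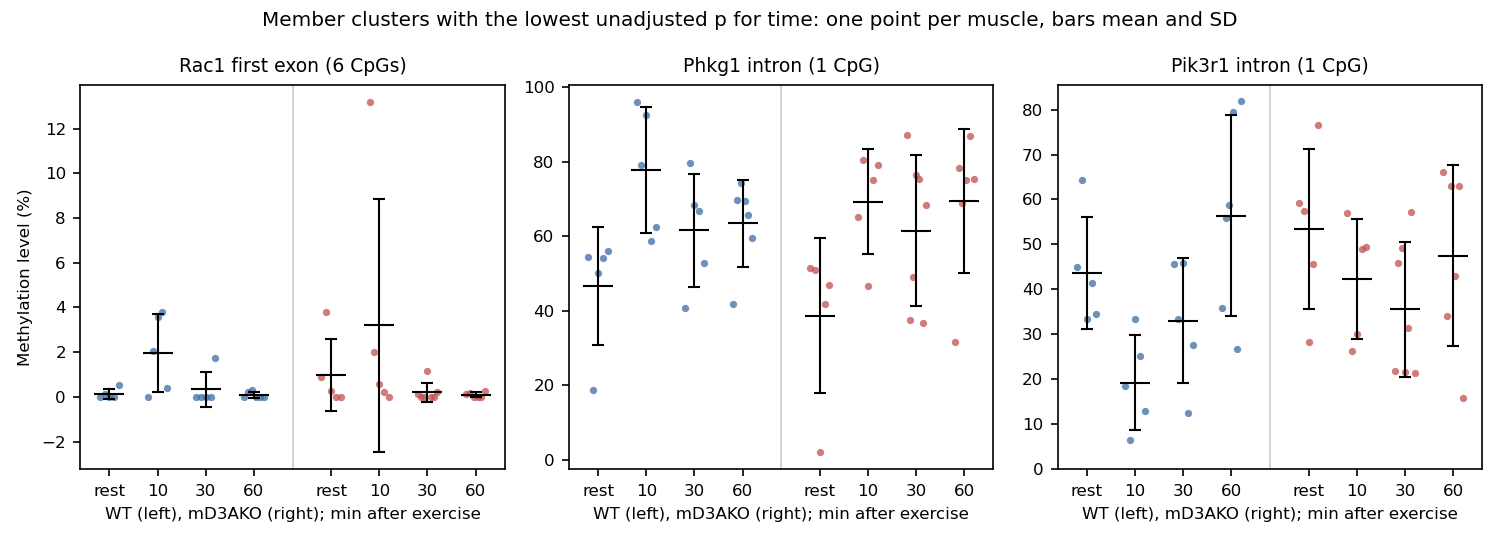
Methylation level (y axis, percent) of the 3 member clusters with the lowest unadjusted p for time, in Rac1, Phkg1 and Pik3r1, by group (x axis), one point per muscle (n = 5 to 7 per group), with bars for the mean and SD. The Phkg1 means are lowest at rest, at 46.7% and 38.7%. Its WT points at rest (56.1% or lower) lie below those at 10 min (58.6% or higher). At Pik3r1 the WT points at rest and 10 min meet at 33.3%. The points of the other neighbouring groups overlap.

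The last question was whether the time course differed between genotypes. The interaction called no member cluster in edgeR (0 of 120, with 0% of all clusters called), and 4 had an unadjusted p under 0.05, against 2.74% of all clusters. The likelihood ratio test, the quasi-binomial model, limma and the 20-call minimum called 0 member clusters as well. The lowest values were at the starts of Gyg (unadjusted p = 0.022), Prkag1 (0.0313) and Phkb (chr8:85840582-85840589, 0.0365), each with an adjusted p of 1. Their group means lay between 0% and 2.97%. The highest group mean, that of Phkb in WT muscle at 60 min, held 1 muscle at 14.3% and a median of 0.446%.

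A further 103 genes of the same pathways were read beside the members, and 84 held 1249 CpGs in 177 clusters. Of these clusters, 115 (65.0%) were lower, against 62.3% of all clusters. At an unadjusted p under 0.05 there were 26 (14.7%), each lower in mD3AKO muscle, against 9.56% of all clusters. For genotype 6 (3.39%) were called, again against 1.09% of all clusters. None was called for time or for the interaction. The lowest adjusted p was at Pygb, the brain-type glycogen phosphorylase (chr2:150786449-150787639), at 4.02% in WT and 0.969% in mD3AKO muscle, with each of 23 mD3AKO muscles below the WT mean and a log2 odds ratio of -2.24 (adjusted p = 0.00039). Pgm2, a phosphoglucomutase (chr5:64093018-64093681), stood at 2.27% and 0.826% (adjusted p = 0.0123). Among genes around mTOR and FOXO, Deptor, an inhibitor within the mTOR complexes (chr15:55196440-55196487), stood at 32.6% and 13.7% (adjusted p = 0.00868), and Foxo6 (chr4:120268027-120269128) at 15.7% and 5.34% (adjusted p = 0.0123). Prkca, a protein kinase C gene, held a pair of called clusters, at chr11:107965612 with 67.4% and 32.5% (adjusted p = 0.0259) and at chr11:107970501-107970559 with 82.6% and 70.4% (adjusted p = 0.046). In members and further genes alike, each cluster called was lower in mD3AKO muscle. Over the whole table, 4240 of the 4881 clusters at an unadjusted p under 0.05 were lower. The direction was therefore not particular to these genes.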

How the data were processed

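RRBS calls of soleus muscle were analysed. Per the submitters' processing notes, reads were trimmed with Trim Galore 0.4.0 and cutadapt 1.9.1 and aligned to mm10 with Bismark 0.18.1. The authors dropped CpGs below 8 reads in any sample and deposited counts of methylated and unmethylated calls per CpG, not normalized, with assignments to promoters, gene bodies and clusters (CpGs no more than 100 bp apart), used as deposited. Of 50 samples, 6 were not used here. Without molecular identifiers PCR copies are counted, and precision covers counting error only. p-values measure the spread between animals.

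Calls were summed per cluster, promoter or gene body and tested in edgeR 4.0.16 (quasi-likelihood F test, common dispersion, 1 coefficient per sample and 1 methylated fraction per group, two-sided), with Benjamini-Hochberg adjustment over all features at 0.05. Alternatives were the likelihood ratio test, a quasi-binomial model (pseudocount 0.5), limma 3.58.1 (pseudocount 1), at least 20 calls per CpG, sex as a term, subsets of samples and leaving out each sample. The scripts were tested on simulated data. Features came from GENCODE M21 on GRCm38, and 13708 of 13722 gene identifiers matched a symbol. The sequences were read from that genome.

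Named were called clusters, the lowest genotype p of each role, the 3 lowest p for time and for the interaction, promoters over 20%, and the cluster with most CpGs; others were named after their values were seen. The members and lists were chosen with earlier results of these data known.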

Additional observations from a re-analysis of the deposited data

Results flagged for a closer look

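In 104 groups of 13 clusters, 23 values stood apart from the rest of their group by Dixon's test, which by chance marks about 1 group in 20. At Foxo3 these were WT muscles at 10 min (5.02%) and 30 min (9.36%), which lay above the next muscle of their group at 1.07% and 2.31%. At the intronic Hk1 cluster it was an mD3AKO muscle at 30 min (30.2%, next 11.8%).

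Most of the others were single high muscles at gene starts with levels near 0. At Rac1 they were 0.529% (WT, rest), 1.74% (WT, 30 min), 3.78% (mD3AKO, rest), 13.2% (mD3AKO, 10 min) and 1.16% (mD3AKO, 30 min). At Gyg they were 3.41% (mD3AKO, rest), 2.76% (mD3AKO, 30 min), 2.06% (WT, 10 min) and 1.25% (WT, 30 min). At Prkag1 they were 2.27% (mD3AKO, rest), 0.602% (mD3AKO, 30 min), 2.04% (WT, 10 min) and 1.41% (WT, 60 min). At the Phkb start they were 14.3% (WT, 60 min), 1.92% (mD3AKO, 10 min) and 1.02% (mD3AKO, 30 min), and at the Prkab1 start 6.10% (mD3AKO, 60 min).

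The Phkg1 CpG held low muscles at 18.8% (WT, rest), 2.22% (mD3AKO, rest) and 31.7% (mD3AKO, 60 min). The rest values of Phkg1 and the 10 min values of Rac1 thus include single distant muscles in the comparison with time.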

How the results depend on the processing

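The clusters called for genotype, and the lowest genotype p of each role, kept a negative log2 odds ratio under each alternative run. Promoters that were not called did not all keep their sign: Aldoa differed by -4.85 points in samples 1 to 25 and by 4.90 in samples 26 to 50, and Pgam2 by -5.73 and 7.44. The 3 member clusters called for genotype became 7 with the likelihood ratio test, 7 with the quasi-binomial model and 5 CpGs when CpGs were tested singly in that model, and 0 in samples 1 to 25, 0 in samples 26 to 50 and 0 in the rest groups alone, which hold fewer samples. Leaving out each sample in turn, judged by the largest unadjusted p that was called (0.000543), gave 2 to 5, the highest without mD3AKO sample 33 (30 min), where Akt1 and the internal start of Pik3r1 passed. The 2 gene bodies became 4 with the quasi-binomial model and 1 with limma. Promoters, time and the interaction had 0 calls under each alternative run.

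The log2 odds ratio of Pik3r1 was -1.53 with at least 20 calls per CpG, -0.79 in samples 1 to 25, -1.75 in samples 26 to 50 and -0.29 at rest, none of them called, and -1.39 to -1.15 with each sample left out. That of Camkk2 was -2.54, -2.73 and -2.38 in the same subsets, not called, and -2.80 to -2.46 with each sample left out, called in 44 of 44. That of Foxo3 was -1.32 with at least 20 calls, where 4 CpGs remained, -2.15, -2.77 and -2.01 in the subsets, not called, and -2.63 to -2.28 with each sample left out, called in 44 of 44.

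No paired analysis was possible because the number in each title belongs to 1 sample only. Depth limits the Foxo3 result, since 21 of its 25 CpGs had fewer than 20 calls in at least 1 sample, and starts with levels near 0 rest on few methylated calls.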
